A study of Mus musculus with 12 samples.

Results

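The genes described are the mouse collagen chains other than those of collagen VI, measured by RNA sequencing in skin biopsies of mice exposed to ticks. Of the 25070 genes in the table, 38 carry a collagen chain symbol and are not 1 of the 6 chains of collagen VI. Of these 38, the 31 that reached 1 CPM (counts per M, or mega, reads of the library) in at least 2 of the 12 libraries are described as the members. The other 7 (Col2a1, Col9a1, Col10a1, Col11a2, Col19a1, Col25a1 and Col26a1) lay below that level. Just inside the rule, Col9a2 reached 1 CPM in 2 libraries, and just outside it, Col9a1 did so in 1 library. The study asked how mouse skin responds to repeated tick infestation. Biopsies were taken 4 days after the ticks attached, and total RNA was sequenced.

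The control was naive, unbitten skin (n = 2). Bitten skin came from mice in their 1st exposure (n = 3), from a group labelled ticks 2x (n = 3), from a group labelled ticks 3x (n = 3), and from a single biopsy labelled saliva immune (n = 1). The labels give no strain, sex, age or tick species. They do not say whether the sampled infestation counts in 2x and 3x, how saliva immunity was raised, or whether each library is a separate animal. P-values therefore measure the spread between these libraries, which may be partly technical. First exposure and saliva immune libraries carry 1 title prefix and naive, 2x and 3x libraries another, so first exposure and title series cannot be told apart.

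Collagens are extracellular proteins built of triple helices, in which glycine recurs at a fixed interval along each chain. Fibrillar collagens such as I, III and V, made mainly by fibroblasts, give the dermis its tensile strength. Collagen IV forms the sheet-like network of basement membranes, and collagens VII and XVII fasten the epidermis to the dermis below it. Fibril-associated collagens coat the fibrils, and multiplexins lie at basement membranes.

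The glycine repeat can be read in the coding sequence as GGN codons at that fixed interval. Stretches of 14 triplets are shown from an interstitial fibril chain of each kind, a basement membrane chain and a transmembrane chain, because these 4 represent the places where skin collagen lies. They were read from GENCODE M21 transcripts on build GRCm38. Capitals mark the GGN codon that opens each triplet, and any further GGN codon inside a triplet is left in small letters. Each stretch is coding exon sequence whose genomic span includes introns.
Col1a1, codon 168 onward, chr11:94939451-94940135, plus strand: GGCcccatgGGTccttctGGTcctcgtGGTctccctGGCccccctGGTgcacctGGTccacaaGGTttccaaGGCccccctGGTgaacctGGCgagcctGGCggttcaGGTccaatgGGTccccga
Col3a1, codon 164 onward, chr1:45323762-45325840, plus strand: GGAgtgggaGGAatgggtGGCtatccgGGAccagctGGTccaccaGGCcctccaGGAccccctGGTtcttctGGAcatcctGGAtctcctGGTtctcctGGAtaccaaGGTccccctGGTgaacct
Col4a1, codon 43 onward, chr8:11246890-11267614, minus strand: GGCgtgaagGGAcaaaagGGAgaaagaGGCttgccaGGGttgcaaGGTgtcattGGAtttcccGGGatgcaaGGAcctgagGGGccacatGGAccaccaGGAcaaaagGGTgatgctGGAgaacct
Col17a1, codon 651 onward, chr19:47663840-47665866, minus strand: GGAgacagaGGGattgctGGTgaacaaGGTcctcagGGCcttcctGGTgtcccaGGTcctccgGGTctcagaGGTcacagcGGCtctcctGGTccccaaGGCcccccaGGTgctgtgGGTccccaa

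The length of the uninterrupted repeat separated the fibrillar chains from all other members, while most other classes overlapped. The multiplexins, at 30 triplets each, and Col28a1, at 28, lay below all other members. In 7 of the 9 fibrillar members the longest unbroken run held 337 to 344 triplets, with 338 in Col1a1, 339 in Col1a2 and 344 in Col3a1. The other two fibrillar chains, Col24a1 and Col27a1, had longest runs of 216 and 217 triplets. No member outside the fibrillar class exceeded 113 triplets. The 6 chains of collagen IV had longest runs of 39 to 66 triplets and were broken into 23 to 27 runs of at least 3 triplets. Col17a1, the transmembrane collagen of hemidesmosomes, held 22 runs with a longest of 55 triplets. Col7a1, the chain of the anchoring fibrils, held 21 runs with a longest of 75 triplets.

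The depth, estimated from the CPM value of a single read, lay between 12.5 and 29.8 M reads per library, so that 3 reads corresponded to 0.101 to 0.24 CPM. Skin identity markers were present throughout: Krt14, a keratin of basal cells, lay between 831 and 3264 CPM, and Krt10, of the layers above, between 1378 and 9099 CPM. The libraries differed in composition within every group. Summed CPM of 11 hair follicle genes ranged from 11.4 in the saliva immune library to 27593 in first exposure replicate 2. The sum of 6 skeletal muscle genes ranged from 2011 in 2x replicate 1 to 38703 in 3x replicate 3. Bulk RNA cannot tell fewer cells of a type from less RNA per cell.

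Collagen transcripts made up a variable share of the RNA, and that share overlapped between the 4 fitted groups. All 38 collagen genes, those below the level rule included, summed to 1.23% and 1.15% of the reads in the naive libraries. After first exposure they summed to 1.02%, 0.647% and 1.78%. The 2x libraries gave 1.31%, 1.81% and 1.08%, and the 3x libraries 1.68%, 1.70% and 0.59%. The lowest and the second lowest share, in 3x replicate 3 and first exposure replicate 2, stood in groups that also held some of the highest. The saliva immune library gave 1.55%. Col1a1, Col1a2 and Col3a1 alone supplied 54.9% to 78.2% of the CPM summed over these 38 genes.

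Per kilobase of exon, Col3a1 was the most abundant member with a mean of 483 CPM per kb over the 12 libraries. Col1a1 followed at 352 and Col1a2 at 187 CPM per kb. The epidermal Col17a1 came next at 122 CPM per kb, ahead of the basement membrane chains Col4a1 at 79.9 and Col4a2 at 45.7 CPM per kb. Levels of the regulatory fibril chains Col5a1 and Col5a3 were nearly equal on this scale, at 40.9 and 40.5 CPM per kb. The length used was that of all annotated exons of a gene merged, 12.4 kb for Col1a2 and 6.56 kb for Col1a1. Before division by length these chains had nearly equal means, 2326 and 2311 CPM, so their difference per kilobase rests on the annotated length. Of the 31 members, 14 had a mean of at least 100 CPM and 7 a mean under 5 CPM.

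**Figure D1:**
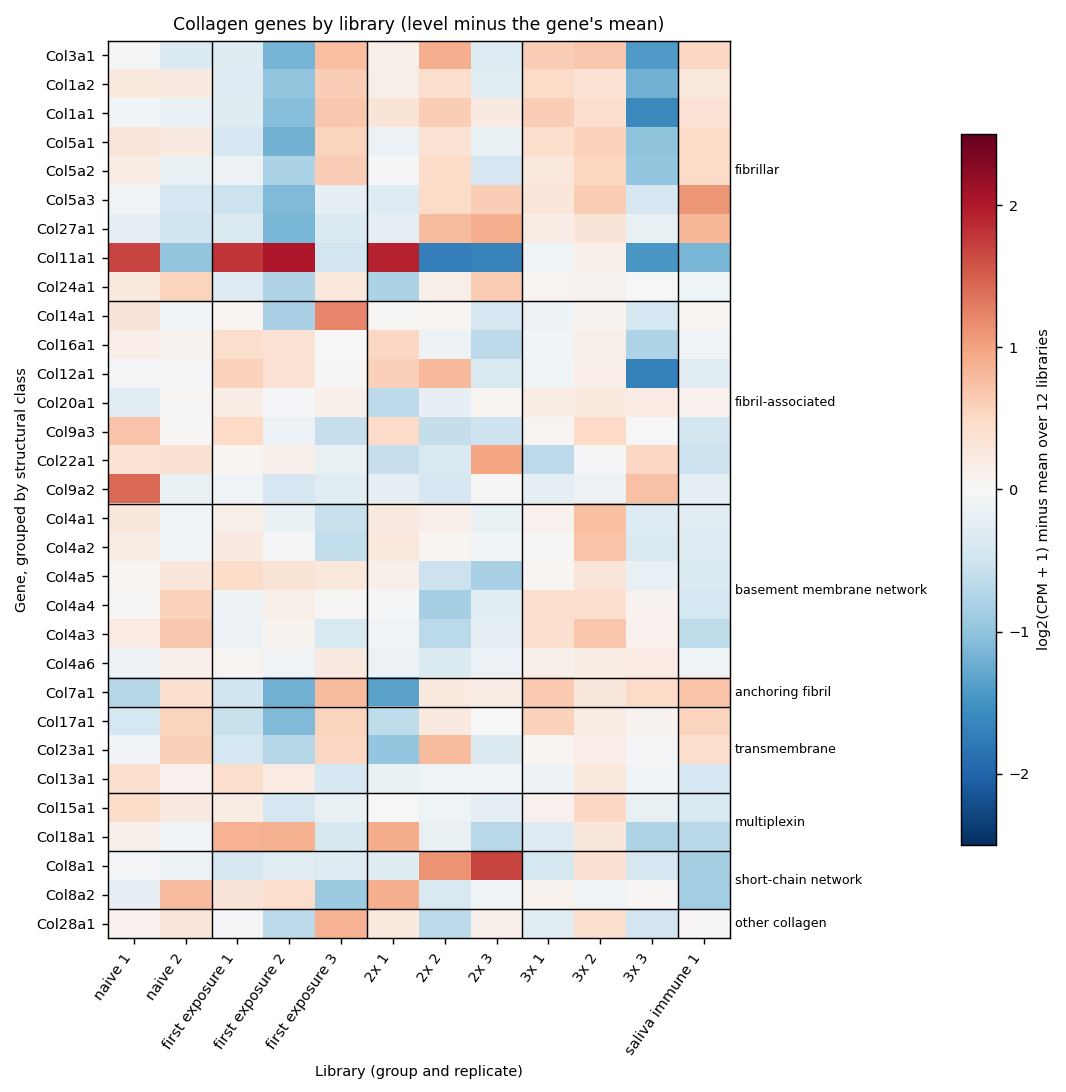
Level of each of the 31 members in each of the 12 libraries, as log2(CPM + 1) minus the member's mean over the libraries, with members as rows grouped by structural class and libraries as columns grouped by exposure. Colours run from -2.5 to 2.5; first exposure replicate 2 and 3x replicate 3 show low fibrillar chains, while Col11a1 is high in 4 libraries from 3 groups.

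No member passed the test in any of the 8 comparisons made (limma on log2(CPM + 1), Benjamini-Hochberg adjusted p below 0.05 over 17064 genes). First exposure against naive skin called 0 of 31 members, against 0.0117% of all genes. In 2x against naive the count was 0 against 0.0352%, in 3x against naive 0 against 0.00586%, and in all bitten groups against naive 0 against 0.0410%. Repeat exposure (2x and 3x together) against first exposure called 0 members against 0.820% of all genes. The remaining comparisons, 2x and 3x with first exposure and 3x with 2x, called 0 members against 0% of all genes. With so few calls over all genes, a count of 0 sets the collagens apart in none of these comparisons. Weighting the libraries by their estimated quality (limma's array weights, which did not converge) gave 1 called member in 2x, 6 in 3x and 16 in repeat exposure against first exposure, among 583, 5078 and 10299 of the 17064 genes.

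At an unadjusted p below 0.05 in limma, the counts were 0 of 31 members for first exposure against naive, where all genes gave 16.4%, and 3 for 2x against naive, where all genes gave 10.9%. They were 0 for 3x against naive with a background of 6.95%, and 0 for bitten against naive with a background of 11.2%. For 2x against first exposure 4 members reached that level against 15.9% of all genes, for 3x against first exposure 2 against 17.8%, and for repeat against first exposure 3 against 20.6%. Only 3x against 2x had a larger share of members, with 4 of 31 (12.9%), than of all genes, 5.15%. The members' share was below the background in the other 7 comparisons.

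Members whose libraries did not overlap between the groups were counted as well. First exposure against naive had 5 of 31 members apart against 35.0% of all genes, 2x against naive 7 against 27.6%, and 3x against naive 3 against 25.1%. Against first exposure, 2x had 3 members apart where all genes gave 17.7%, and 3x had 3 where all genes gave 21.3%. In 3x against 2x 5 members (16.1%) were apart against 11.7% of all genes. For bitten against naive the count was 0 against 7.33%, and for repeat against first exposure 1 against 8.25%.

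The median of the members lay below 0 in each comparison with naive skin. It was -0.24 on the log2 scale for first exposure, with 23 of 31 members below 0 and a median of 0.08 over all genes. For 2x it was -0.21, with 23 of 31 below 0, and for 3x -0.18, with 22 of 31 below 0, against all-gene medians of 0.01 and 0.02. These comparisons share the 2 naive libraries, so their agreement is not independent. Against first exposure the medians were 0.03 for 2x and 0.18 for 3x, beside -0.08 and -0.04 over all genes. Single libraries moved these medians. Without first exposure replicate 2 they were -0.10 for first exposure against naive, -0.10 for 2x and 0.02 for 3x against first exposure. Without 3x replicate 3 the median was 0.09 for 3x against naive and 0.36 for 3x against first exposure. Without 3x replicate 2 these were -0.34 and 0.06. Markers of fibroblasts, the main source of dermal collagen, lay in the same direction in first exposure against naive: all 8 were below 0 with a median of -0.73, and 0 were called. Other cell types lay lower there too: all 6 adipocyte markers were below 0 (median -1.68, summed CPM 1966 to 3024 against 6069 to 6517 in naive), as were all 5 endothelial markers (median -1.09), 6 skeletal muscle markers (median -0.52) and 4 Schwann cell markers (median -0.49). Hair follicle genes lay the other way, with all 11 above 0 (median 2.67). None of these markers passed the test, and the part of tissue composition in the collagen medians was not tested.

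The 3 main dermal fibril chains overlapped between the 4 fitted groups, with the exception of Col1a1 in 2x against naive. Col1a1, the alpha 1 chain of collagen I (chr11:94936224-94953042), stood at 2013 and 1883 CPM in naive skin. It stood at 1700, 1013 and 3366 CPM after first exposure, at 2635, 3245 and 2457 CPM in 2x, and at 3217, 2792 and 691 CPM in 3x. The 2x libraries all lay above the naive ones, whereas first exposure and 3x each straddled them. The 2x difference from naive was 0.50 on the log2 scale (95% confidence interval -1.02 to 2.02, limma adjusted p = 0.840). For 3x against 2x the difference was -0.59 (interval -1.94 to 0.77, limma adjusted p = 0.922), a value set by 3x replicate 3: without it, the difference was 0.12.

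Col1a2 encodes the partner chain of collagen I (chr6:4505618-4541543). Its levels were 2601 and 2552 CPM in the naive libraries, 1747, 1097 and 3324 CPM after first exposure, 2429, 2961 and 1828 CPM in 2x, and 3044, 2760 and 949 CPM in 3x. The naive libraries were nearly equal, and every bitten group spread to both sides of them. Its difference from naive was -0.47 after first exposure (interval -1.78 to 0.83), -0.13 in 2x and -0.37 in 3x, with limma adjusted p of 0.696, 0.974 and 0.940. Without 3x replicate 3 the last was 0.17.

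Col3a1, the chain of collagen III (chr1:45311538-45349706), ranged 4.98-fold over the 12 libraries. It stood at 4163 and 3372 CPM in the naive libraries, 3446, 1891 and 7139 CPM after first exposure, 4650, 7930 and 3384 CPM in 2x, and 6465, 6755 and 1593 CPM in 3x. The 4 fitted groups all overlapped. The 2x difference from naive was 0.42 (interval -1.29 to 2.12, limma adjusted p = 0.894). An interval this wide leaves the direction of a difference undetermined.

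**Figure D2:**
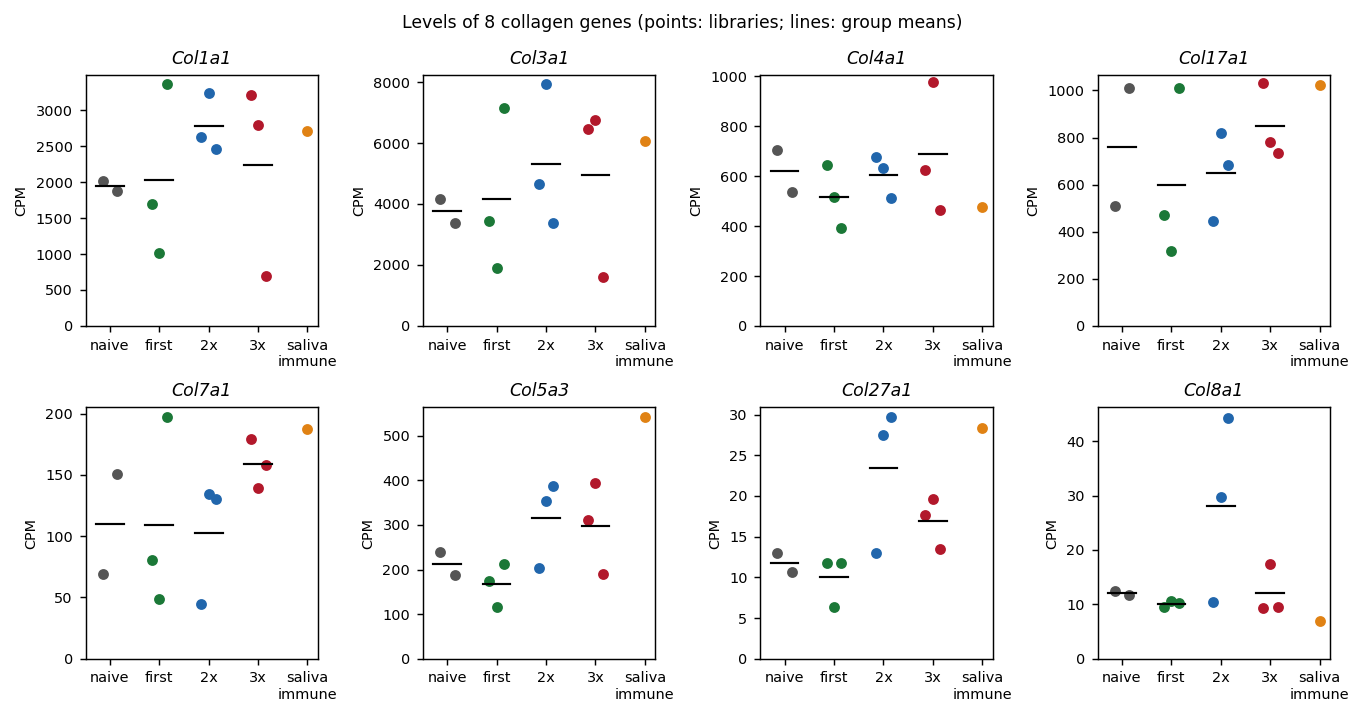
CPM of Col1a1, Col3a1, Col4a1, Col17a1, Col7a1, Col5a3, Col27a1 and Col8a1, 1 panel per gene on a linear axis from 0, with groups along the horizontal axis, a point for each library and a line at the group mean. Col1a1 reaches from 691 CPM in 3x to 3366 CPM after first exposure, and the 6 repeat libraries lie above first exposure for Col27a1.

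The library 3x replicate 3 held the lowest Col1a1, Col1a2, Col3a1 and Col12a1 of all 12. In the same library the summed skeletal muscle markers (38703 CPM) and adipocyte markers (8541 CPM) were the highest of all. The summed fibroblast markers there were 2243 CPM, inside the range of the other libraries, and Dcn, the fibroblast proteoglycan decorin, was at 1043 CPM. First exposure replicate 2, with the second lowest Col1a2 and Col3a1, had the lowest fibroblast sum (1073 CPM) and the highest hair follicle sum. The part of muscle, fat, hair and fibroblast content in these collagen levels was not tested.

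Col27a1 and Col5a3 had the largest positive differences between repeat and first exposure. Col27a1 encodes a fibrillar collagen known from cartilage, whose repeat is shorter than in collagen I. It stood at 13.0 and 10.6 CPM in the naive libraries, 11.8, 6.41 and 11.8 CPM after first exposure, 13.0, 27.5 and 29.7 CPM in 2x, and 17.7, 19.6 and 13.4 CPM in 3x. All 6 repeat libraries lay above the 3 of first exposure, the only member apart in that comparison. The repeat difference was 0.92 (interval 0.28 to 1.57, limma adjusted p = 0.138), and the 2x difference alone was 1.11 (interval 0.37 to 1.86, limma adjusted p = 0.192). Neither passed the threshold.

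Col5a3, which encodes the alpha 3 chain of collagen V, stood at 239 and 188 CPM in the naive libraries and at 173, 116 and 213 CPM after first exposure. It stood at 203, 354 and 386 CPM in 2x and at 311, 393 and 189 CPM in 3x. A repeat library of each label overlapped first exposure. The repeat difference was 0.85 (interval 0.23 to 1.48, limma adjusted p = 0.152). For the other chains of collagen V it was 0.35 in Col5a1 (interval -0.54 to 1.25, limma adjusted p = 0.597) and 0.08 in Col5a2 (interval -0.74 to 0.91, limma adjusted p = 0.906). No test compared the chains with each other.

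Col11a1, a chain of collagen XI, had the widest range of any member of at least 5 CPM, 21.5-fold from 1.48 CPM in 2x replicate 2 to 31.9 CPM in first exposure replicate 2. The naive libraries already differed, at 25.2 and 3.12 CPM. Levels after first exposure were 27.1, 31.9 and 4.83 CPM, in 2x 29.8, 1.48 and 1.55 CPM, and in 3x 6.47, 7.85 and 1.94 CPM. It was therefore high in 4 libraries from 3 groups, among them an unbitten one. Its difference between first exposure and naive was 0.76 with an interval of -2.08 to 3.59 (limma adjusted p = 0.773), and its sign turned to -0.58 without naive replicate 2.

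Among the chains of collagen IV, Col4a1 and Col4a2, which form the heterotrimer found in nearly all basement membranes, had overlapping levels in the 4 fitted groups. Col4a1 (chr8:11198423-11312889) stood at 703 and 536 CPM in the naive libraries, 646, 517 and 393 CPM after first exposure, 676, 631 and 511 CPM in 2x, and 625, 979 and 464 CPM in 3x. The highest and the lowest value came from bitten skin, in 3x and first exposure. Its difference from naive was -0.27 after first exposure (interval -1.01 to 0.46), -0.03 in 2x and 0.10 in 3x, with limma adjusted p of 0.690, 0.995 and 0.981.

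Col4a3 and Col4a4, chains of the collagen IV found in specialised basement membranes, had their lowest means among the 4 fitted groups in 2x. Col4a3 stood at 4.74 and 6.87 CPM in the naive libraries, 3.46, 4.29 and 2.80 CPM after first exposure, 3.64, 2.11 and 3.17 CPM in 2x, and 5.55, 7.06 and 4.33 CPM in 3x. The 2x and first exposure libraries all lay below the naive and the 3x libraries, by a narrow margin between first exposure replicate 2 and 3x replicate 3. For 2x against naive the difference was -0.78 (interval -1.38 to -0.18, limma adjusted p = 0.363). For 3x against 2x it was 0.74 (interval 0.20 to 1.28, limma adjusted p = 0.894).

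Col4a4 gave the same order of 2x and naive skin, at 8.43 and 12.8 CPM in naive, 7.48, 9.19 and 8.50 CPM after first exposure, 8.11, 4.17 and 6.70 CPM in 2x, and 11.2, 11.2 and 8.87 CPM in 3x. Its 2x libraries lay below all naive and all 3x libraries. The difference for 2x against naive was -0.68 (interval -1.28 to -0.07, limma adjusted p = 0.410). Col4a5, the remaining chain of that heterotrimer, had its 2x libraries (29.3, 18.2 and 14.8 CPM) below those of first exposure (37.1, 33.8 and 32.4 CPM). That difference was -0.75 (interval -1.27 to -0.23, limma adjusted p = 0.197). At these levels of a few CPM the log2(CPM + 1) scale understates the size of a difference.

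Proteins that share the basement membrane with these chains, among them laminins, nidogens and perlecan, gave 16 of 17 below 0 in 2x against naive (median -0.32) and 16 of 17 above 0 in 3x against 2x (median 0.28). Of all genes, 48.1% lay below 0 in the first of these comparisons, and 9397 of 17064 lay above 0 in the second. The partners were also mostly below naive after first exposure (14 of 17) and in 3x (13 of 17), and 0 passed the test in any comparison. Skeletal muscle markers lay the same way, with all 6 below 0 in 2x against naive (median -2.21) and above 0 in 3x against 2x (median 1.19). So did all 4 Schwann cell markers (medians -1.08 and 0.59) and all 5 endothelial markers (medians -0.26 and 0.44). Of 6 adipocyte markers, 5 lay this way in each comparison (medians -0.69 and 0.32), and of 8 fibroblast markers 7 and 6 did (medians -0.45 and 0.12). In 2x against naive, 4 of 6 basal keratinocyte markers (median 0.14) and all 5 leukocyte markers (median 0.60) lay above 0 instead. The part of these cell types was not tested. Both comparisons contain the 2x libraries, so the opposite signs are not independent.

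**Figure D3:**
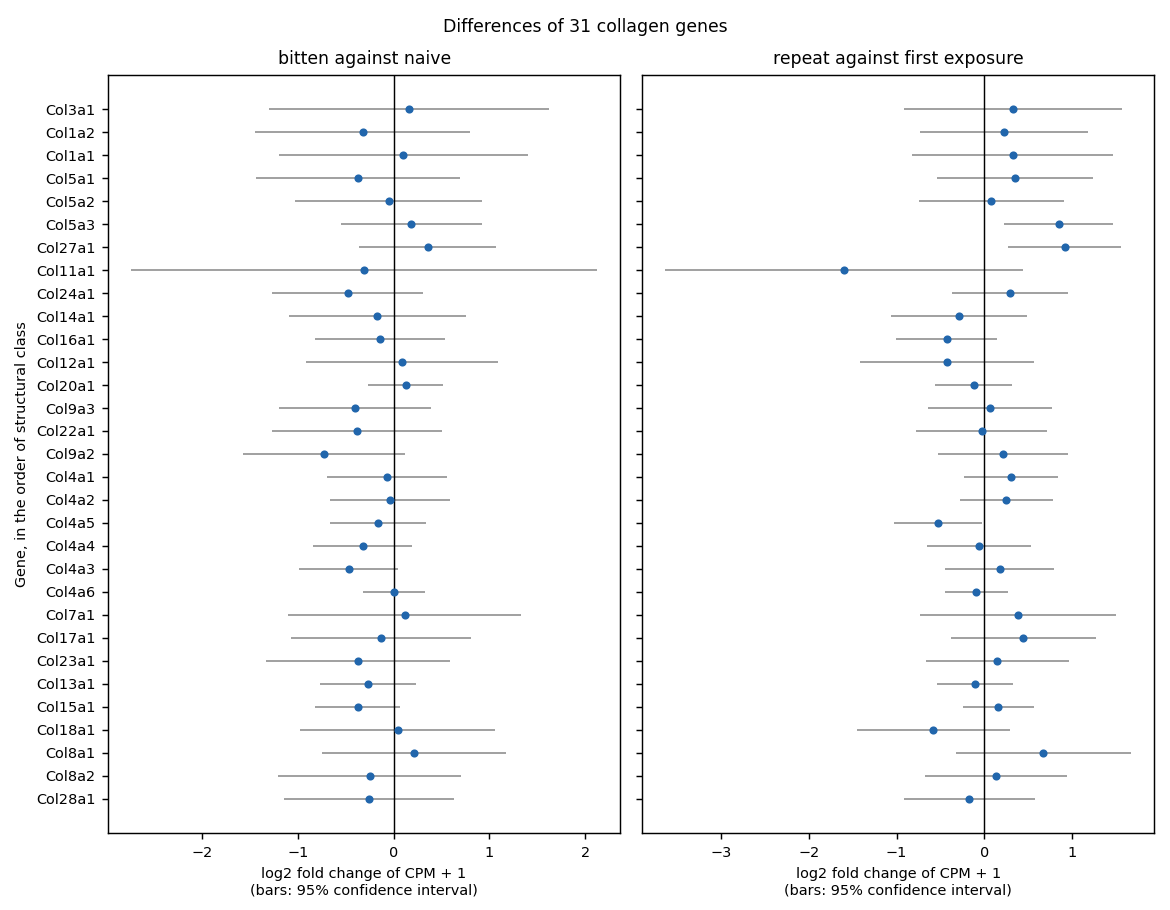
Log2 fold change of CPM + 1 for the 31 members, in the order of their structural class, for all bitten groups against naive (left) and repeat against first exposure (right), with a point for the limma estimate and a bar for its 95% confidence interval. No member passed an adjusted p of 0.05; Col27a1 (0.92) and Col5a3 (0.85) lie farthest to the right in the right panel and Col11a1 (-1.60) farthest to the left.

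The 2 collagens that fasten epidermis to dermis varied together. Col17a1, the hemidesmosome protein of basal keratinocytes (chr19:47646341-47692042), stood at 508 and 1010 CPM in the naive libraries, 469, 319 and 1011 CPM after first exposure, 447, 817 and 684 CPM in 2x, and 1032, 782 and 733 CPM in 3x. Col7a1, made largely by keratinocytes and assembled into anchoring fibrils (chr9:108953586-108984875), stood at 68.8 and 150 CPM in the naive libraries, 80.8, 49.0 and 198 CPM after first exposure, 44.4, 134 and 130 CPM in 2x, and 179, 140 and 158 CPM in 3x. Both were low in the same naive, first exposure and 2x libraries. Col7a1 in 3x lay above all 2x libraries, by 0.77 with an interval of -0.49 to 2.04 (limma adjusted p = 0.896). For Col17a1 the largest difference was 3x against first exposure, 0.65 (interval -0.33 to 1.63, limma adjusted p = 0.409).

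None of the fibril-associated chains passed the test. Of the 7 tested, 3 lay below 0 in first exposure, 6 in 2x and 6 in 3x, each against the same naive libraries, with medians of 0.02, -0.24 and -0.36. Col12a1, abundant in dense connective tissue, was above both naive libraries (75.0 and 75.1 CPM) in each first exposure library, at 117, 99.5 and 78.8 CPM. In 2x it was at 118, 136 and 60.0 CPM and in 3x at 71.4, 87.2 and 23.4 CPM, to both sides of naive. Without 3x replicate 3, the 3x difference from naive turned from -0.50 to 0.07. Its difference between first exposure and naive was 0.37 (interval -0.80 to 1.54, limma adjusted p = 0.735). Col14a1, a fibril surface collagen, stood at 219 and 166 CPM in the naive libraries and at 180, 99.1 and 407 CPM after first exposure. Its levels in 2x were 178, 181 and 129 CPM and in 3x 160, 185 and 129 CPM, so that only first exposure replicate 3 lay above the naive pair.

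Col20a1, a member of the same class, was at 24.7, 25.8 and 25.0 CPM in 3x, above every library of the other groups. The margins were small: first exposure replicate 1 held 24.5 CPM. The difference between 3x and 2x was 0.48 (interval 0.08 to 0.89, limma adjusted p = 0.894).

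Neither multiplexin passed the test, and after first exposure their estimates had opposite signs. Col15a1, found between basement membranes and the matrix of vessels and muscle, was below naive (193 and 162 CPM) in every library of first exposure (158, 104 and 123 CPM) and 2x (141, 130 and 120 CPM). The 3x libraries, at 151, 200 and 122 CPM, straddled naive. First exposure differed from naive by -0.48 (interval -1.0 to 0.04, limma adjusted p = 0.332). Col18a1, the precursor of endostatin, was at 140 and 123 CPM in the naive libraries and at 236, 239 and 97.3 CPM after first exposure. That difference was 0.43 (interval -0.76 to 1.62, limma adjusted p = 0.699). Levels of Col18a1 were 244, 113 and 79.6 CPM in 2x and 103, 157 and 75.1 CPM in 3x. From first exposure, 2x differed by -0.44 (interval -1.50 to 0.62, limma adjusted p = 0.646). For 3x this was -0.72 (interval -1.78 to 0.34, limma adjusted p = 0.403). Col18a1 was highest in first exposure replicates 1 and 2 and 2x replicate 1, which had the highest hair follicle list means. The part of hair follicle content was not tested.

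Of the short-chain network collagens, Col8a1 was high in a pair of 2x libraries. This chain, made by vascular and other mesenchymal cells, stood at 12.5 and 11.7 CPM in the naive libraries, 9.47, 10.7 and 10.3 CPM after first exposure, 10.4, 29.8 and 44.4 CPM in 2x, and 9.34, 17.4 and 9.51 CPM in 3x. The lowest 2x library lay inside the first exposure range. The difference between 2x and first exposure was 1.18 (interval 0.17 to 2.18, limma adjusted p = 0.262). Its partner Col8a2 did not share the pattern, at 18.3, 6.87 and 8.57 CPM in the same 2x libraries.

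The remaining members were at low levels. Of the 7 with a mean under 5 CPM, Col24a1, a fibrillar chain, ranged from 1.38 to 5.4 CPM and Col13a1, a transmembrane chain, from 0.388 to 1.57 CPM. Col22a1 and Col9a3, both fibril-associated, ranged from 0.0001 to 2.11 CPM and from 0.898 to 3.65 CPM, and Col4a6 of collagen IV from 0.634 to 1.42 CPM. Above that level, the transmembrane Col23a1 ranged from 15.8 to 55.7 CPM and Col28a1 from 3.75 to 12.8 CPM. Col9a2 reached 2.72 CPM in naive replicate 1, the library in which Col9a1, its partner in collagen IX and just below the level rule, held 3.63 CPM. Collagen IX is typical of cartilage, and the cartilage markers Matn1 and Hapln1 were at most 0.168 and 0.431 CPM in any library. Acan, the cartilage proteoglycan aggrecan, ranged from 0.0001 CPM, the offset present in every cell, to 6.36 CPM.

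Hair follicle content differed widely between the biopsies, and the members separated by it about as often as all genes. The mean log2 level of the hair follicle list exceeded 8 in 4 libraries: naive replicate 1, first exposure replicates 1 and 2, and 2x replicate 1. That boundary was chosen after the values were seen, and the split is a description without a test. Next below it came 3x replicate 2 at 7.25 and 3x replicate 1 at 5.67, so the other libraries also include some with hair follicle RNA. A wider gap lay beneath these, down to 3.05 in 2x replicate 2. In the 4 libraries above 8, Col11a1 lay at 25.2 to 31.9 CPM, against 1.48 to 7.85 CPM in the other 8. Col16a1, a fibril-associated chain, lay at 135 to 172 CPM against 69.3 to 132.5 CPM. Both epidermal anchoring collagens lay lower, Col17a1 at 319 to 507.5 CPM against 684 to 1032 CPM and Col7a1 at 44.4 to 80.8 CPM against 130 to 198 CPM. These 4 of 31 members (12.9%) were apart between the sets, against 11.4% of 17176 genes. A cut at the wider gap moves 3x replicates 1 and 2 into the upper set. Col17a1 (1032 and 782 CPM in these replicates), Col7a1 (179 and 140 CPM) and Col16a1 (114 and 132.5 CPM) then overlapped between the sets. Only Col11a1 of these members stayed apart there. With the list mean as a covariate, the difference of Col11a1 between first exposure and naive was -0.19 in place of 0.76. The interval without the covariate, -2.08 to 3.59, holds both values. Acan, at 3.39 to 6.36 CPM, was also highest in the 4 libraries above 8. The part of hair follicle content in these levels was not tested.

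**Figure D4:**
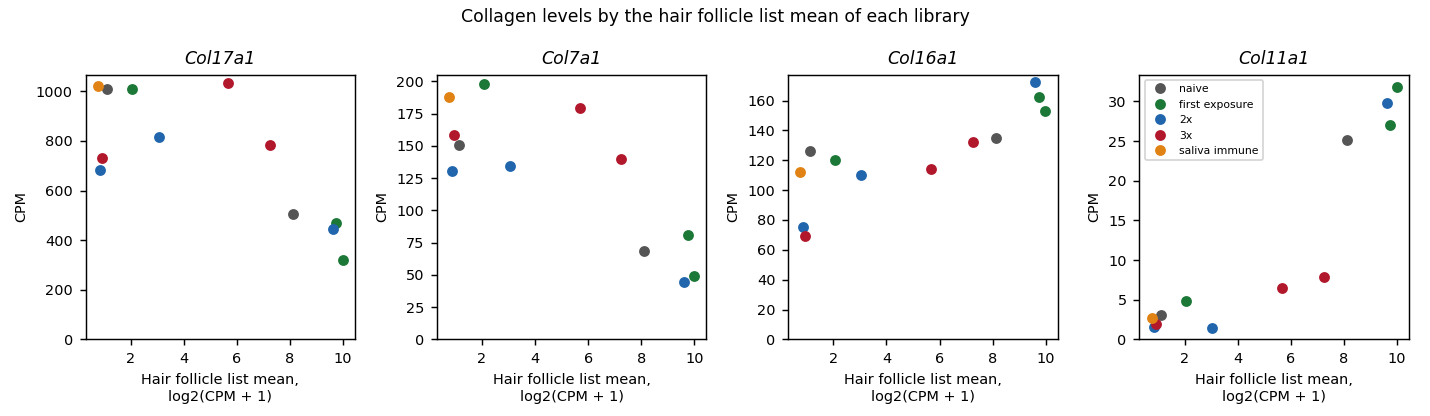
CPM of Col17a1, Col7a1, Col16a1 and Col11a1 on linear axes from 0 against the mean log2(CPM + 1) of the hair follicle list, with 1 point per library coloured by group. The 4 libraries with a list mean above 8 hold the highest Col11a1 and Col16a1 and the lowest Col17a1 and Col7a1.

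How closely 2 chains kept step was described by the spread of their ratio over the 12 libraries, for the 276 pairs of the 24 members with a mean of at least 5 CPM. Col4a1 and Col4a2 kept the steadiest ratio, 1.81 to 2.10, with an SD of 0.08 on the log2 scale. Their genes lie head to head on chromosome 8 and overlap by 85 bases in the RefSeq annotation of GRCm38.p6. Reads from the overlap cannot be told apart unless counting used strand, which is not given in the sources used here. The merged exons measure 7.46 kb for Col4a1 and 6.62 kb for Col4a2, and the part of the overlap in the ratio was not tested. Next came Col1a2 with Col5a1, at an SD of 0.17, and Col1a2 with Col5a2, at 0.21. Col27a1 and Col5a3 came after these with an SD of 0.22.

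The pair that makes up collagen I, Col1a1 and Col1a2, ranked only 9 of 276, with a ratio from 0.729 to 1.34. Col1a1 was steadier against Col3a1 (SD 0.23) than against its own partner (SD 0.26), although these values were not tested against each other. Col17a1 and Col7a1 ranked 12, with an SD of 0.29. The chains of collagen VIII, Col8a1 and Col8a2, ranked 232 with an SD of 1.02, and the loosest pair was Col11a1 with Col7a1 at 2.38. All pairs share the same libraries and their composition, and no shared control is read from these ranks.

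**Figure D5:**
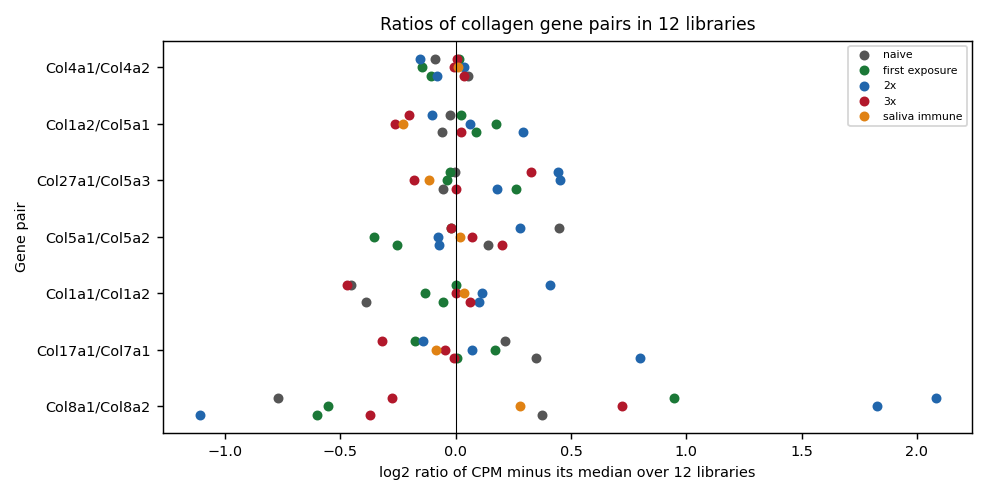
Log2 ratio of CPM of 7 selected pairs of members minus its median over the 12 libraries (horizontal axis), 1 row per pair and 1 point per library coloured by group. The points of Col4a1/Col4a2 lie close together (SD 0.08), those of Col1a1/Col1a2 wider (SD 0.26), and those of Col8a1/Col8a2 widest of these pairs (SD 1.02).

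Other members also lie side by side in the genome. Col4a4 and Col4a3 overlap by 114 bases on chromosome 1, and Col4a6 and Col4a5 are separated by 1274 bases on chromosome X. Col3a1 and Col5a2 are 24624 bases apart on chromosome 1.

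RefSeq promoters were matched for 24 of the 31 members, giving 25 windows of 300 bases. The 120 bases before the start are shown for 2 pairs of members, which ranked 11 and 12 of 276 by the steadiness of their ratio. Capitals mark CCAAT or TATAAA on either strand, with ATTGG as the reverse of CCAAT. Build GRCm38.p6 was used.
Col1a2, chr6:4505498-4505617, plus strand: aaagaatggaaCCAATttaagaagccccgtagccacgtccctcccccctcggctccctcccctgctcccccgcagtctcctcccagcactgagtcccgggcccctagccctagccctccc
Col3a1, chr1:45311418-45311537, plus strand: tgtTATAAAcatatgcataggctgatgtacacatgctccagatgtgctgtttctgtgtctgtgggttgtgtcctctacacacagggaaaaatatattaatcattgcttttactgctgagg
Col7a1, chr9:108953466-108953585, plus strand: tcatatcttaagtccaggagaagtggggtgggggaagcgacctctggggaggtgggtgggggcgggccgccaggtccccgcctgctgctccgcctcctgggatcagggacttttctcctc
Col17a1, chr19:47692043-47692162, minus strand: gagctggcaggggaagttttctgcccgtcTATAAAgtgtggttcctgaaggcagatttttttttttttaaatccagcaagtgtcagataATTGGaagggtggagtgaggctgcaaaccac

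Within the 120 bases shown, the genes of these pairs did not share these letters. Col1a2 held CCAAT and Col3a1 TATAAA, and Col17a1 held both whereas Col7a1 held neither in these 120 bases. Farther out, at -249 from the start, Col7a1 did hold CCAAT, as Col17a1 did nearer its start. Col4a1 and Col4a2, the pair with the steadiest ratio, also both held CCAAT in their full windows. Over the full windows, CCAAT was in 10 of 25 member promoters (40%) and in 37.4% of the 32851 promoters in the table. TATAAA was in 3 of 25 (12%) against 13.6%. GGGCGG, the GC box letters, was in 16 of 25 (64%) against 35.7%. All 3 motifs were searched on both strands, and a match is a description of letters, not of binding.

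Genes that build, cut and bind collagen gave 0 calls in every comparison. The lists held 19 chain assembly and modification genes, 13 for propeptide cleavage and crosslinking (12 tested), 15 fibril-binding matrix proteins, 10 collagen receptors (8 tested), the 17 basement membrane partners and 13 genes of transforming growth factor beta signalling. After first exposure the fibril-binding proteins, small proteoglycans among them, had a median of -0.66 against naive, with 11 of 15 below 0. The assembly and modification genes had a median of -0.12, with 16 of 19 below 0. In 2x against naive the assembly genes had a median of 0.14, with 13 of 19 above 0, beside the all-gene median of 0.01.

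The saliva immune library allows no test and is described against the other 11. Col5a3, at 542 CPM, lay above all of them (116 to 393 CPM), and Col8a1, at 6.94 CPM, below all (9.34 to 44.4 CPM). These 2 of 31 members (6.45%) compare with 9.90% of 17176 genes outside the range of the other libraries. Against the 2 naive libraries, 10 members (32.3%) lay above both and 18 (58.1%) below both, where 44.6% and 29.8% of all 17176 genes did so. Col1a1 stood at 2718 CPM, Col3a1 at 6072 CPM and Col17a1 at 1021 CPM, all within the range of the other libraries.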

How the data were processed

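The 12 libraries were made from total skin RNA; per the submitters' processing notes, the tools were Partek 8.0.19 and STAR and the genome build was GRCm38.p6. For annotation, strand and counting program, the sources used here give nothing. The deposited values are CPM plus an offset of 0.0001 that the authors put into each of them. Depth was estimated from the CPM step of 1 read, within 0.02 reads, on which 73.4% to 79.3% of the values between 0.01 and 3 CPM fell; as this is not nearly all, no count test was run. A floor of 3 reads covers counting error only.

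Groups followed the labels, and the single saliva immune library entered no fit. The fit (limma 3.58.1, R 4.3.3) used log2(CPM + 1) of genes that reached 1 CPM in 2 or more of its 11 libraries, a variance trend and Benjamini-Hochberg adjustment over 17064 genes. Log2 differences of low genes are understated on this scale. A fit with 4 groups gave every comparison except repeat against first exposure, which came from a fit with 2x and 3x as 1 group. The fit was checked on simulated data with the same log2 spread for every gene and independent noise. That checks the code and tells nothing about calls in these data.

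The members and gene lists were chosen with earlier results of these data known. Named were the 5 markers Col1a1, Col1a2, Col3a1, Col4a1 and Col17a1. So were the members with the 3 largest differences each way per comparison, among members of at least 5 CPM. The 2 most abundant members of each of 8 structural classes were named too. Not every one of these differences is given with its value. Other members were named after their values were seen. Correlations planned between members were replaced by ratios, and planned protein repeats by GGN codon runs in GENCODE M21 transcripts, because no protein table was used here. Tables and figures used pandas 2.3.3 and numpy 2.4.6 under Python 3.11.15, and matplotlib 3.10.9. The alternatives were pseudocounts of 0.5 and 0.1, other filters and scalings, robust moderation, array weights, a hair follicle covariate, smaller fits and leaving out each library.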

Additional observations from a re-analysis of the deposited data

Results flagged for a closer look

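In 46 groups of values of the 23 named members, 5 gene values, from 3 libraries, stood far from the others of their set by Dixon's ratio, and chance marks about 1 in 20 such groups. Col1a1, at 691 CPM in 3x replicate 3, was far below the other 5 libraries of repeat exposure. The same library held Col12a1 at 23.4 CPM, far below the other 8 bitten libraries. Col14a1, a fibril surface collagen, stood at 407 CPM in first exposure replicate 3, far above the other bitten libraries. In 2x replicate 1, the repeat library with the highest hair follicle sum, the anchoring fibril chain Col7a1 was low at 44.4 CPM and the short-chain collagen Col8a2 was high at 18.3 CPM among the 6 repeat libraries. The saliva immune library, which no comparison used, held Col5a3 at 542 CPM, above the naive and all other libraries.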

How the results depend on the processing

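The number of called members was 0 under 176 of 179 alternative settings, and the median kept within 1 pooled SD (0.22) of its value under 176 of 179. With array weights, limma called 1 member in 2x, 6 in 3x and 16 in repeat against first exposure, and the median for first exposure against naive was -0.53; the weights did not converge, and the cause was not tested. Leaving out each library in turn gave medians from -0.34 to 0.087 for 3x against naive and from -0.16 to 0.30 for 3x against 2x, both highest without 3x replicate 3. It gave -0.39 to -0.096 for first exposure against naive, -0.10 to 0.13 for 2x and 0.023 to 0.36 for 3x against first exposure. Of 1074 alternative values of named differences, 8 changed sign. For Col11a1 against naive, first exposure gave -0.19 with the hair follicle covariate and from -0.58 to 2.09 leaving out 1 library (lowest without naive replicate 2). There 2x ranged from -2.17 to 0.49 and 3x from -2.17 to 0.49, both highest without naive replicate 1. For 3x against naive, Col1a2 gave 0.075 with array weights and from -0.67 to 0.17 leaving out 1 library, and Col12a1 from -0.86 to 0.071. For 3x against 2x, Col1a1 ranged from -0.99 to 0.12, and all 3 ranges were highest without 3x replicate 3. The cause was not tested. Counts over all genes ranged, leaving out 1 library and under the other settings together, from 0 to 1753 for first exposure, 0 to 34 for 2x, 0 to 276 for 3x and 0 to 427 for bitten, all against naive. They ranged from 0 to 583 for 2x, 0 to 5078 for 3x and 0 to 10299 for repeat against first exposure, and from 0 to 1 for 3x against 2x. Scaling by median of ratios, quantiles or totals without the top 50 genes moved the median of all genes by -0.06 to 0.06. A fit of only the 8 libraries of the naive, 2x and 3x title series, added after the data were seen, called 0 members. No paired analysis was possible because the labels hold no number that ties libraries of different groups together. With 2 or 3 libraries a group, differences of the size of the intervals given could not be resolved, and depth limits the members near 1 CPM.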
